A study of Mus musculus with 3 samples.

Results

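Contacts of the splicing activator Tra2β with the transcripts of 10 cohesin, condensin and SMC genes were examined in the adult mouse testis. The genes were Smc1a, Smc1b, Smc2, Smc3, Smc4, Smc5, Smc6, Stag3, Rad21l and Rec8. They were listed by name as parts of these complexes, by a rule with no threshold on crosslinks though with earlier results of these data known, and are 10 of the 21770 protein-coding genes of the GENCODE vM39 annotation. The data were iCLIP libraries from testes of wild type adult mice, minced to release germ cells and pulled down with a polyclonal anti-Tra2b antibody. iCLIP crosslinks protein to RNA in ultraviolet light, and the cDNA copied from the RNA left in the precipitate ends at the crosslinked base. The 3 libraries form 1 group, described as biological replicates, and libraries of input RNA, of a control antibody or of a knockout were not used here. Below, a crosslink is 1 unique cDNA at 1 base on the strand of the gene, exons and introns are those of the Ensembl canonical transcript, and CPM is crosslinks scaled to the library total.

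SMC proteins are long ATPases that fold back on themselves at a hinge, so that an antiparallel coiled coil joins the hinge to an ATP-binding head. They work in pairs. Smc1 and Smc3 form the core of cohesin, which holds sister chromatids together and extrudes chromatin loops, Smc2 and Smc4 form the core of condensin, which compacts chromosomes at division, and Smc5 with Smc6 acts in DNA repair and recombination. Meiotic cells build cohesin with specialised subunits, Smc1b in place of Smc1a, Rec8 or Rad21l in place of the kleisin Rad21 that closes the ring, and Stag3 in place of Stag1 or Stag2. Tra2β is known to bind purine-rich RNA with GAA repeats and to promote inclusion of the exons it binds.

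The libraries held 348033, 619571 and 488719 crosslinks in replicates 1, 2 and 3, so that the 3 counts taken as the limit of a count of 0 equal 8.62, 4.84 and 6.14 CPM. Replicate 2 stood apart. Of its crosslinks in protein-coding genes 26.9% lay in exons, against 43.1% and 55.7% in replicates 1 and 3. All 6 spermatocyte markers listed, which include Sycp1 and Sycp3, and all 6 spermatid markers had crosslinks, with summed levels of 638 to 1490 CPM and 316 to 2306 CPM, lowest in replicate 2 in each list. All 5 Sertoli and all 5 Leydig cell markers were also seen, at 136 to 310 CPM and 61.3 to 109 CPM, all 4 spermatogonium markers were at 83.3 to 94.1 CPM, and none of 4 liver markers was seen. The part of these cell types in the results below was not tested. Fewer cells of a type, less RNA per cell and less binding per RNA cannot be told apart in these data, and no RNA level was measured beside them.

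The 10 genes together took 630, 420 and 1477 crosslinks in replicates 1, 2 and 3, which is 0.181%, 0.0678% and 0.302% of each library. Over the libraries 1893 of their 2527 crosslinks lay in 246 exons and 634 in 236 introns. Replicates 1, 2 and 3 had 74.0%, 52.4% and 81.7% of them in exons, with Clopper-Pearson intervals (95%) of 70.4 to 77.4, 47.5 to 57.2 and 79.7 to 83.7. The mean exonic share was 69.4% ± 15.2 (SD, n = 3), and 77.8% without replicate 2. The share of the 10 genes was above that of all protein-coding genes in each library, and both were lowest in replicate 2. On the opposite strand of the 10 genes lay 13, 20 and 8 crosslinks, 2.02%, 4.52% and 0.538% of both strands together. These intervals cover counting error only.

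Exonic density, in CPM per kb of exon, spanned the range from Smc4 at 112 ± 102 through Smc1b at 57.1 ± 50.2, Smc6 at 38.8 ± 31.3, Stag3 at 27.9 ± 12.0, Smc5 at 20.2 ± 12.6, Smc3 at 18.0 ± 12.9, Smc2 at 15.0 ± 7.60, Rec8 at 6.64 ± 4.16 and Smc1a at 2.38 ± 1.36 to Rad21l at 0.735 ± 0.650 (SD, n = 3 throughout). The means of neighbours in this order differed by less than the SD of the higher gene, except between Smc2, Rec8, Smc1a and Rad21l at the low end, where they differed by slightly more. Within single libraries 4 of the 9 neighbouring pairs kept their order in all 3. These were Smc4 over Smc1b, Stag3 over Smc5, Rec8 over Smc1a and Smc1a over Rad21l. The density was highest in replicate 3 for 9 members and lowest in replicate 2 for 8. Rec8 was the member highest in replicate 2. The densities in this order include the UTRs. Over coding sequence alone, summed over libraries, Smc5 had 54.9 crosslinks per kb against 39.5 in Stag3. Smc6 had 80.2 against 79.3 in Smc1b, which is about equal. These came from 58, 30 and 176 crosslinks in 3291 nt of Smc6 and 76, 17 and 204 in 3744 nt of Smc1b. Per kb, Smc1b was slightly higher in replicates 1 and 3 and Smc6 was higher in replicate 2. The other neighbours kept their order. Sums over libraries are not the mean of CPM used above, so the 2 orders differ in more than the UTRs.

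**Figure D1:**
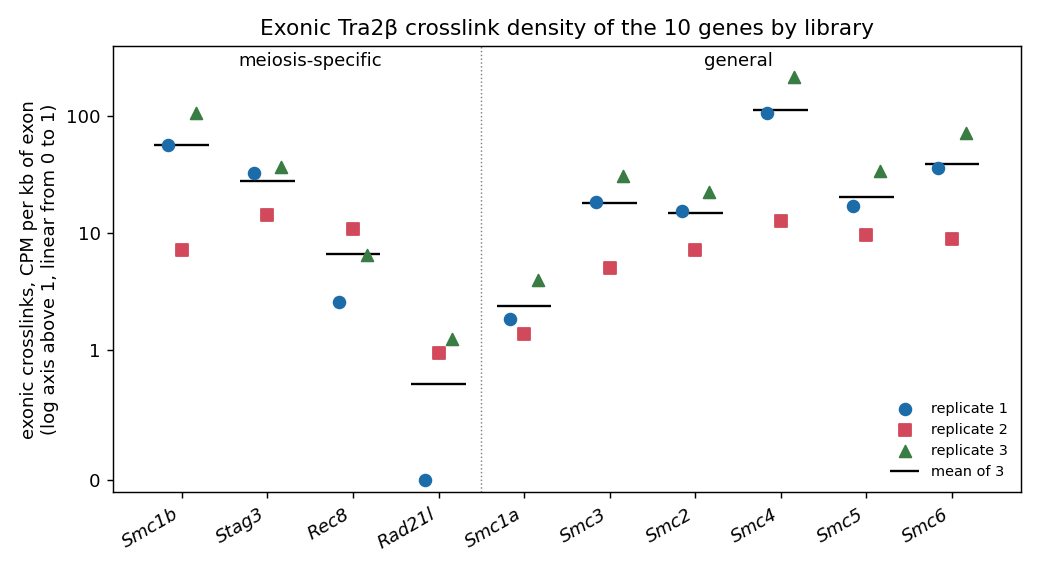
Exonic crosslinks in CPM per kb of exon for each gene (y axis, logarithmic above 1 and linear from 0 to 1), with a point per library and a bar at the mean of 3. Smc4 and Smc1b had the highest means, 112 and 57.1 CPM per kb, and Rad21l, with 0 exonic crosslinks in replicate 1, the lowest.

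Of the cohesin cores, Smc1b, the meiotic Smc1 subunit, was densely contacted and its general counterpart Smc1a had few contacts. Smc1b (chr15:84948882-85016204) had 81, 18 and 215 exonic crosslinks in replicates 1, 2 and 3, in 24 of its 25 exons. Smc1a, on chromosome X, had 3, 4 and 9, and no exon of it was hit in all 3 libraries. The exonic density of Smc1b was above that of Smc1a by 4.74, 2.24 and 4.70 on the log2 scale in replicates 1, 2 and 3, a mean of 3.89 ± 1.43 (SD, n = 3, with 0.5 crosslinks added to each count). The groups of values did not overlap, since the lowest density of Smc1b, 7.10 CPM per kb in replicate 2, was above the highest of Smc1a, 3.93 CPM per kb in replicate 3. The proteins, translated from the canonical transcripts, are alike at 52.2% of 1228 aligned residues, and their coding sequences hold much the same density of GAA, 47.0 and 45.1 per kb. Smc3, the partner of both, had 31, 15 and 73 exonic crosslinks, in 28 of 29 exons, and the density of Smc1b over that of Smc3 was 1.62, 0.50 and 1.80 on the log2 scale in the same order. These densities include the UTRs. In coding sequence alone, replicate 2 had 17 crosslinks in 3744 nt of Smc1b and 15 in 3651 nt of Smc3, which is close.

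The windows of 41 nt with most crosslinks in the densest coding exon of each core gene are printed to show the contacted sequence, with each GAA in capitals and coordinates in GRCm39 (as all below). Smc1b exon 8 had 2, 0 and 7 crosslinks in this window, Smc3 exon 2 had 1, 1 and 3, and Smc1a exon 8 had 1 in replicate 1 alone.
Smc1b exon 8, chr15:85000078-85000118 (-): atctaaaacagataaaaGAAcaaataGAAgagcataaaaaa
Smc3 exon 2, chr19:53589937-53589977 (+): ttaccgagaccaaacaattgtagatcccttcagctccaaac
Smc1a exon 8, chrX:150811996-150812036 (+): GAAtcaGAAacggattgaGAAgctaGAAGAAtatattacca
The Smc1b window is 78.0% purine. The Smc3 window holds no GAA and is 46.3% purine.

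Stag3, the meiotic subunit that binds the kleisin, had 50, 39 and 79 exonic crosslinks in replicates 1, 2 and 3. Its exonic share of 74.6%, 70.9% and 76.7% had the smallest spread of the members, 2.93 percentage points (SD, n = 3). Its density of 32.7, 14.3 and 36.7 CPM per kb lay above that of the general Stag1, at 4.64, 3.65 and 5.62, and Stag2, at 2.79, 0.783 and 3.72, in every library. Rec8, the meiotic kleisin cleaved by separase, had 2, 15 and 7 exonic crosslinks, and its density of 2.59, 10.9 and 6.44 CPM per kb overlapped that of the general kleisin Rad21, at 12.3, 3.26 and 12.4. Rec8 was above Rad21 in replicate 2 and below it in the other libraries. These densities are over whole exons with their UTRs, 4399 nt in Stag3, 6186 nt in Stag1 and 8241 nt in Stag2. Rec8 has 2223 nt of exon and Rad21 has 3956 nt. The pairs were not compared over coding sequence alone. Rad21l, the kleisin of early meiotic prophase, had 1 crosslink in each library, so that with 1.61 to 2.87 CPM it lay under the limit of a count of 0, and its contacts could not be described at this depth. The densest exon of Rec8, exon 17, held 0, 3 and 3 crosslinks in the window shown here.
Rec8 exon 17, chr14:55862202-55862242 (+): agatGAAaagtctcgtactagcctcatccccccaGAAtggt
It reads 48.8% purine.

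Of the condensin cores, Smc4 had the highest exonic density of the 10 genes, and Smc2 had more contacts in introns than in exons over the libraries. Smc4 (chr3:68911944-68941960) had 160, 34 and 458 exonic crosslinks in replicates 1, 2 and 3, and ranked 82 of 21770 protein-coding genes by mean CPM and 65 by exonic density. Smc2 had 29, 24 and 59. The density of Smc4 over that of its partner was 2.77, 0.82 and 3.27 on the log2 scale, higher in 3 of 3 libraries. This density includes the 3' UTRs, of 104 nt in Smc4 and 1608 nt in Smc2. In coding sequence alone Smc4 had 151, 34 and 441 crosslinks in 3858 nt and Smc2 had 21, 23 and 51 in 3573 nt. Smc4 was still higher in each library, with a smaller lead in replicate 2.

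All 24 exons of Smc4 were hit, 13 of them in every library. Exons 7 to 13, a run of neighbours picked out after their values were seen, held 43.8%, 67.6% and 49.6% of its exonic crosslinks in replicates 1, 2 and 3 in 27.0% of its exonic length. Summed over libraries their density was 274 crosslinks per kb against 105 in the other exons of the gene. In single libraries the log2 ratio was 1.07, 2.50 and 1.41 in replicates 1, 2 and 3, highest in replicate 2, which had 34 exonic crosslinks. Of the 10 exons with most crosslinks per kb among the 40 member exons that held 10 or more and were hit in every library, 7 belonged to Smc4. These were exons 7, 8, 9, 10, 11, 12 and 16, at 224 to 312 crosslinks per kb over the libraries. The remaining ones were Stag3 exon 32, Smc6 exon 2 and Smc5 exon 8, at 205, 182 and 167. Exon 13 of Smc4, at 309, was left out because it was not hit in every library. None of exons 7 to 13 or 16 of Smc4 was called in the test of single exons given below. Their adjusted p ran from 0.297 to 0.744 (edgeR quasi-likelihood test).

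**Figure D2:**
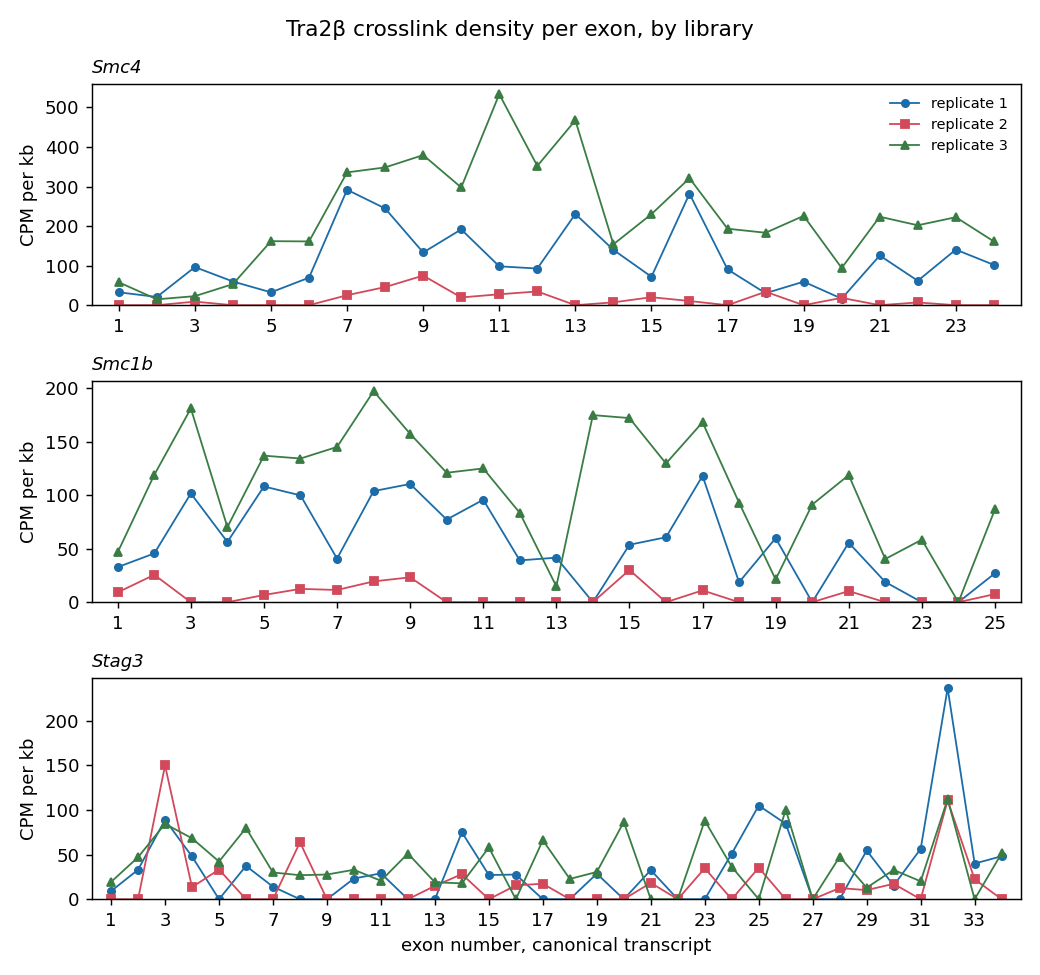
Crosslinks in CPM per kb in each exon (y axis) against exon number in the canonical transcript (x axis) for Smc4, Smc1b and Stag3, with a line per library. Summed over libraries Smc4 is highest over exons 7 to 13 and at exon 16. Single libraries vary, and in replicate 1 exons 11 and 12 lie slightly below the rest of the gene. Smc1b exon 24 is at 0 in every library. Stag3 is highest at exon 32 in replicates 1 and 3 and at exon 3 in replicate 2.

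Exon 11 of Smc4 had 8, 4 and 61 crosslinks in replicates 1, 2 and 3, so that replicate 3 gave most of its 73. The window shown held 2, 0 and 20 of them and is 51.2% purine.
Smc4 exon 11, chr3:68929611-68929651 (+): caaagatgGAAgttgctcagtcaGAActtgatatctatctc

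The introns of Smc2 held 31, 45 and 48 crosslinks in replicates 1, 2 and 3 and its exons 29, 24 and 59, so that introns led in replicates 1 and 2 and exons in replicate 3. Its mean exonic share of 46.1% ± 10.4 (SD, n = 3) was the lowest of the members, but Smc1a was close at 47.9% ± 7.32 (SD, n = 3). In replicate 1 Smc1a, with 42.9%, was below the 48.3% of Smc2. Intron 22 (chr4:52478513-52481669), the intron of the gene with most crosslinks, held 17, 12 and 22, and intron 23 (chr4:52481831-52484039), singled out after its values were seen, held 9, 21 and 17. With 12.3% of the intronic length of the gene they took 83.9%, 73.3% and 81.2% of its intronic crosslinks. Summed over libraries this was 16.2 and 21.3 crosslinks per kb, against 0.680 in the other 22 introns together, and introns 21 and 24 on each side held 0. The contacts were spread along both introns rather than stacked at a site, with crosslinks in 7 of 7 and 5 of 5 bins of 500 nt. The log2 ratio of both introns over the others was 5.10, 4.26 and 4.89 in replicates 1, 2 and 3, lowest in replicate 2 and far above 0 in each. Without them the exonic share of Smc2 would be 85.3%, 66.7% and 86.8%. A lncRNA, Smc2os, overlaps the gene on the opposite strand, and its span (chr4:52430273-52475913) does not reach introns 21 to 24.

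**Figure D3:**
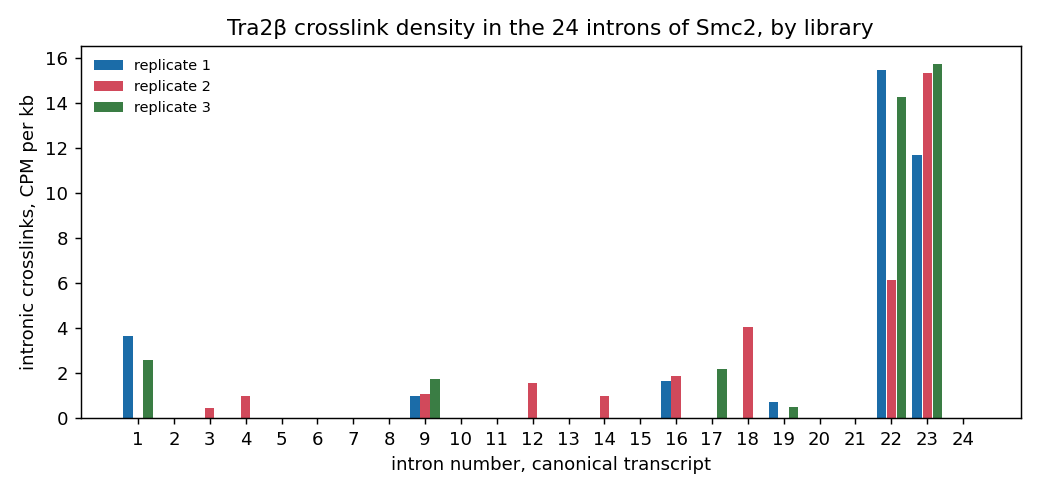
Intronic crosslinks in CPM per kb of intron (y axis) in the 24 introns of Smc2 (x axis, in transcript order), with a bar per library. Introns 22 and 23 stand above all others in each library, and introns 21 and 24 are at 0.

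Both members of the Smc5 and Smc6 pair were contacted in every library. Smc5 had 39, 39 and 110 exonic crosslinks in replicates 1, 2 and 3 and Smc6 had 71, 31 and 196. The density of Smc6 over Smc5 was 1.09, -0.09 and 1.06 on the log2 scale, higher for Smc6 in replicates 1 and 3 and about equal in replicate 2. This density includes the 3' UTRs, of 1904 nt in Smc6 and 3239 nt in Smc5. In coding sequence alone Smc6 had 58, 30 and 176 crosslinks in 3291 nt and Smc5 had 37, 38 and 104 in 3258 nt. Smc6 was then higher in replicates 1 and 3, by less, and Smc5 in replicate 2. Smc6 exon 2 held 6, 5 and 15 crosslinks and Smc5 exon 8 held 2, 4 and 6. Their windows held 2, 5 and 12 and 1, 4 and 4 of these.
Smc6 exon 2, chr12:11321775-11321815 (+): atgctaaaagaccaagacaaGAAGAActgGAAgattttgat
Smc5 exon 8, chr19:23232045-23232085 (-): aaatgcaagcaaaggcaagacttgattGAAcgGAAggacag
The first is 68.3% purine and the second 73.2%.

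Next it was asked whether contacts favoured exons over introns once length is taken into account. All 9 members with at least 20 crosslinks were denser in exons (edgeR quasi-likelihood test, Benjamini-Hochberg over 6907 genes, adjusted p from 1.26e-05 for Stag3 to 6.97e-04 for Rec8), and Rad21l had too few to be tested. This was common, as 71.8% of all genes tested were called denser in exons and 0.333% denser in introns, so that most genes behaved alike in this respect. The sizes were above the median of all genes tested, 2.46 on the log2 scale, in each of the 9. They ran from 2.78 in Smc2 and 3.04 in Smc1a through 3.30 in Rec8, 3.99 in Smc3, 4.14 in Smc5, 4.16 in Stag3 and 4.25 in Smc6 to 4.90 in Smc1b and 5.32 in Smc4. The ratio was above 0 in each library for all 9. In single libraries the values were lowest in replicate 2 for most members, 3.25 against 5.94 and 6.48 in Smc4, but not for Rec8 or Smc1a. Without replicate 3 Smc1a was no longer called (adjusted p = 0.0597 by edgeR), and the exact binomial test per library did not call Rec8.

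**Figure D4:**
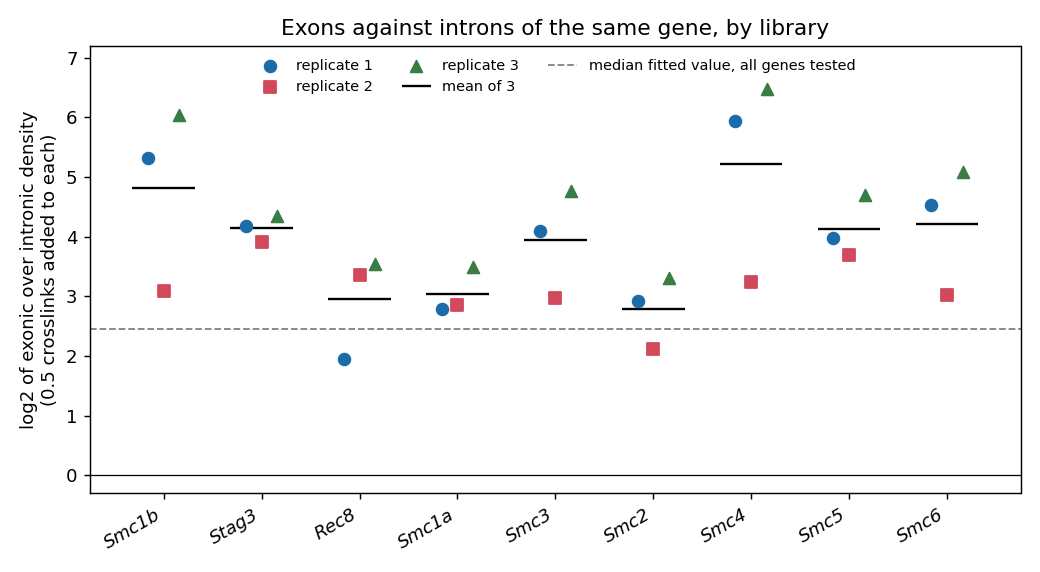
The log2 ratio of exonic over intronic crosslink density (y axis, 0.5 crosslinks added to each count) for the 9 genes tested, with a point per library, a bar at the mean of 3 and a dashed line at 2.46, the median fitted value over all genes tested. The points of replicate 2 lie lowest in 7 of the 9 genes.

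The leading introns of the other members, those with most crosslinks, held fewer per kb than the 16.2 of intron 22 of Smc2. Some short introns with few crosslinks were denser. Intron 23 of Smc4 held 1, 1 and 4 in 252 nt, or 23.8 per kb. Intron 24 of Smc3 held 0, 2 and 0 in 88 nt, or 22.7 per kb. Intron 12 of Smc1b held 10, 11 and 15 crosslinks, intron 5 of Smc4, in which Mir15b and Mir16-2 lie, held 7, 10 and 7, and intron 18 of Smc5 and intron 1 of Smc6, which contain alternative exons of their own gene, held 5, 6 and 12 and 7, 4 and 19. The leading introns of Smc3, Stag3 and Smc1a, introns 2, 4 and 19, held 13, 8 and 7 crosslinks over the libraries, and those of Rec8 and Rad21l held 1 each.

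Coding sequence was next compared with the 3' UTR in the 5 members with at least 500 nt of 3' UTR, of which Smc5 differed most. It had 37, 38 and 104 crosslinks in 3258 nt of coding sequence and 2, 1 and 6 in 3239 nt of 3' UTR, a log2 ratio of 4.19 ± 0.42 (SD, n = 3). Summed over libraries this was above 94.1% of 2559 genes with at least 500 nt of each and at least 20 crosslinks, whose median was 1.70. Smc3 gave 2.93 ± 0.32, Smc6 2.40 ± 1.12 and Smc2 1.60 ± 1.23, with 85.0%, 62.3% and 43.0% of genes below them. Smc1a had 16 crosslinks in its coding sequence and 0 in 888 nt of 3' UTR, too few for a place in this order. The other members have shorter 3' UTRs. Among them Stag3 had 39.5 crosslinks per kb in coding sequence over the libraries and 42.6 in its 352 nt of 3' UTR, from 147 and 15 crosslinks, while Smc1b had 79.3 and 45.8 and Smc4 162 and 106.

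Single exons were then compared with the other internal exons of their transcript. Of 172 member exons tested, 3 were called higher and 2 lower (edgeR quasi-likelihood test, Benjamini-Hochberg over 22171 exons, adjusted p under 0.05), against 1.27% and 0.523% of all exons tested. The shares are near those of exons at large. Those called higher were exon 22 of Smc2, with 6, 8 and 4 crosslinks in 117 nt (log2 fold 2.92, edgeR adjusted p = 4.26e-04), exon 32 of Stag3, with 6, 5 and 4 in 73 nt (2.51, 0.00538), and exon 3 of Stag3, with 3, 9 and 4 in 97 nt (2.19, 0.0156). All 3 are coding exons hit in each library. Exon 22 of Smc2 is the exon just before intron 22, and exon 23, between the introns named above, had 1, 0 and 2 crosslinks in 161 nt. The whole exons follow, with GAA in capitals.
Smc2 exon 22, chr4:52478396-52478512 (+): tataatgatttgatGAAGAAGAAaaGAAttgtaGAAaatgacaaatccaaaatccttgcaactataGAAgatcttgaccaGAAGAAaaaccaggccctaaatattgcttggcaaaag
Stag3 exon 32, chr5:138307461-138307533 (+): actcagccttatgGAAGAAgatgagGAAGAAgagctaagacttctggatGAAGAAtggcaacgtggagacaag
Stag3 exon 3, chr5:138280881-138280977 (+): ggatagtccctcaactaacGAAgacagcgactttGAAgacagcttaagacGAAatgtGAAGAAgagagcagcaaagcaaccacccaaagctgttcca
They hold 8, 6 and 5 GAA and are 63.2%, 69.9% and 61.9% purine, where the coding sequence of Smc2 as a whole is 59.7% and that of Stag3 51.0%. Each of them contains GAAGAA, and how many other exons contain it was not counted. Other exons rich in GAA had few crosslinks. Exon 18 of Smc2, with 17 GAA and 76.3% purine, held 1 over the libraries, and exon 8, with 13 GAA, held 2.

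The lower calls were exon 2 of Smc4, which holds the start codon, with 1, 0 and 1 crosslinks in 138 nt (log2 fold -3.51, edgeR adjusted p = 0.00426), and exon 24 of Smc1b, with 0 in all libraries in 111 nt where 9.29 were expected from the other 22 internal exons (edgeR adjusted p = 0.0365). Those 22 exons held 75, 15 and 193 crosslinks in 3383 nt in replicates 1, 2 and 3. The count expected in exon 24 was thus under 3 in replicates 1 and 2, where a 0 tells little. Set against the limit of 3 counts over the group, the density of exon 24 was at least 3.10-fold lower than that of those exons. This bound rests mostly on replicate 3, for an exon picked by its low count. The coding bases of exon 2 of Smc4 and the whole of exon 24 of Smc1b are these.
Smc4 exon 2, chr3:68913414-68913546 (+): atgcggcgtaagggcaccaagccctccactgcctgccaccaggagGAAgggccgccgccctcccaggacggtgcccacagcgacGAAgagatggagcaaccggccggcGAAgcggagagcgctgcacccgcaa
Smc1b exon 24, chr15:84950420-84950530 (-): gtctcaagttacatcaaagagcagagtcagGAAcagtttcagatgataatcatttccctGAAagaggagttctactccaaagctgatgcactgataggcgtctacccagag
They hold 3 and 2 GAA and are 57.1% and 55.0% purine. The coding sequences of Smc4 and Smc1b as a whole are 59.6% and 59.9%. None of the 5 calls held by the exact binomial test per library or without replicate 1. Without replicate 2, 2 exons were called higher and 5 lower, and without replicate 3, 1 and 0. The fold of exon 3 of Stag3 was 1.34 on the log2 scale without replicate 2, which gave 9 of its 16 crosslinks, and its call held in 3 of 8 alternatives, as did that of exon 24 of Smc1b. The direction was the same in each of 8 alternatives for all 5 exons. This is no further support, because the exons were picked by the same counts that the alternatives reuse. With 0 crosslinks, exon 24 of Smc1b could not have reversed.

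The comparison the classes invite is that of meiosis-specific with general subunits. Summed per class, Smc1b, Stag3, Rad21l and Rec8 had 133, 73 and 302 exonic and 50, 52 and 75 intronic crosslinks in replicates 1, 2 and 3, and Smc1a with Smc2 to Smc6 had 333, 147 and 905 and 114, 148 and 195. The exonic share was 72.7%, 58.4% and 80.1% for the meiosis-specific and 74.5%, 49.8% and 82.3% for the general genes. It differed by -1.82, 8.57 and -2.17 percentage points, a mean of 1.53 ± 6.10 (SD, n = 3, exact sign-flip permutation test, two-sided p = 1), and without replicate 2 the mean was -1.99. The exonic densities were 30.9, 9.52 and 49.9 CPM per kb against 30.4, 7.53 and 58.8, a log2 ratio of 0.02, 0.34 and -0.24, with a mean of 0.04 ± 0.29 (SD, n = 3, exact sign-flip permutation test, two-sided p = 0.75), or -0.11 without replicate 2. With 3 libraries the smallest two-sided p is 0.25. By these measures the classes did not differ beyond the spread of the libraries. The genes within each differed widely, from Smc1b to Rad21l in the first and from Smc4 to Smc1a in the second. Exonic density includes the UTRs, so it depends on their length as well. The 3' UTRs are 3 to 352 nt in the meiosis-specific genes. In the general ones they are 888 to 3239 nt, except for 104 nt in Smc4. The classes were not compared over coding sequence alone. Without Smc4, left out after seeing the data, the meiosis-specific genes were higher by 9.07, 11.3 and 7.07 percentage points and by 0.76, 0.50 and 0.57 on the log2 scale of density. Without the gene of most crosslinks in each class, Smc4 and Smc1b, the mean difference was 13.8 percentage points, and the log2 ratio of density was -0.02, 0.68 and -0.65, with no common direction. With each gene weighted equally the mean differences were 8.59 percentage points and -0.36 on the log2 scale.

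The coiled coils make up most of an SMC protein, and the exons that encode them were compared with the other coding exons. A simple heptad rule on the translated sequence marked 51.9% of residues as coiled coil in Smc5 and 62.2% to 70.4% in the other 6 SMC genes, against 28.1%, 10.3% and 7.78% in Stag3, Rad21l and Rec8. Taking exons with at least 50% of such residues, 112 of 176 coding exons of SMC genes counted as coiled coil. They held 259, 138 and 751 crosslinks in replicates 1, 2 and 3 where 247, 103 and 693 were expected from their length within each gene, and the other exons held 117, 23 and 305 where 129, 57.6 and 363 were expected. The log2 ratio of density was 0.21, 1.74 and 0.37, higher in 3 of 3 libraries, with a mean of 0.77 ± 0.84 (SD, n = 3, exact sign-flip permutation test, two-sided p = 0.25, the smallest possible). Without replicate 2 the mean was 0.29.

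The genes did not share this difference evenly. Smc4 had 194 crosslinks per kb in coiled-coil exons and 96.7 in the others over the libraries, and log2 ratios of 0.32, 2.66 and 1.17. Smc1b had 83.7 and 70.4 per kb, with 0.26, 0.16 and 0.24, the closest agreement between libraries. In Smc2, Smc3 and Smc5 the ratio was above 0 in replicates 1 and 2 and below 0 in replicate 3, and in Smc6 it was above 0 in replicate 2 alone. Smc1a had 2, 4 and 9 crosslinks in coiled-coil exons and 1, 0 and 0 in the others. Without Smc4, left out after seeing the data, the ratio over the other genes was 0.13, 1.54 and -0.08. Among the 10 densest exons named above, those of Smc4 were marked over 88.7% to 100% of their coded residues and exon 8 of Smc5 over all of them, while exon 2 of Smc6 had no marked residue.

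**Figure D5:**
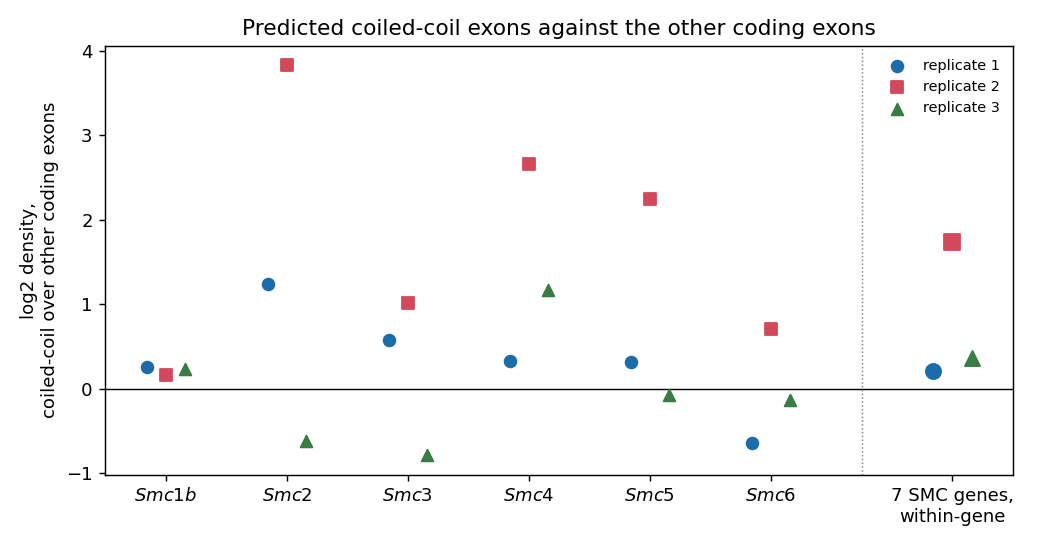
The log2 ratio of crosslink density in predicted coiled-coil exons over the other coding exons (y axis, 0.5 crosslinks added to each count per gene) for 6 SMC genes and, at the right, for all 7 against the expectation from length within each gene, with a point per library. Smc1a, with 16 coding crosslinks, is not drawn alone. Replicate 2 lies highest in 5 of the 6 genes and at 1.74 for all 7.

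The 7 SMC genes shared a sequence feature that was not used to choose them. Their coding sequences hold 39.5 to 47.0 GAA per kb, where the median of 21107 protein-coding genes with at least 300 nt of coding sequence was 21.4 and the upper quartile 28.2. Each lay above 94.4% to 97.9% of those genes. Rad21l, at 39.3 per kb, was above 94.1%, while Stag3 at 23.4 and Rec8 at 24.8 were above 57.7% and 63.2%. Smc1a and Smc1b, close in their density of GAA, were far apart in exonic crosslinks, by the 3.89 on the log2 scale given above. Across the internal exons of a gene the density of crosslinks and of GAA had a Spearman's rho of 0.54 in Smc1b (23 exons), 0.34 in Smc4 (22), 0.28 in Rec8 (18, few of them hit), 0.25 in Smc5 (22), 0.21 in Stag3 (32), 0.12 in Smc3 (27), -0.04 in Smc6 (25) and -0.08 in Smc2 (23), given as descriptions over exons that share their transcript and libraries. Close to the crosslinks themselves, within 10 nt on each side, the mean number of GAA was 0.882, 1.07 and 0.888 in replicates 1, 2 and 3, against 0.882, 1.02 and 0.870 over all positions of the same exons. The ratio of 1.03 ± 0.03 (SD, n = 3) did not differ from 1 beyond the spread of the libraries, and within 30 nt it was 1.03 ± 0.04. This mean joins offsets that went opposite ways, which were picked out after their values were seen. A GAA centred 1 nt upstream of the crosslinked base was present at 2.36%, 1.36% and 2.15% of crosslinks, against 4.30%, 4.96% and 4.27% of all positions of the same exons. A GAA centred 4 nt downstream was present at 6.01%, 10.9% and 5.47%, against 4.22%, 4.82% and 4.14%, higher in each library.

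Few positions recurred. Smc4 had 593 crosslinked positions, 47 of them in at least 2 libraries, all exonic, and Smc1b had 388, with 17, all exonic. Of all positions in the 10 genes 1, in an exon of Smc6, was seen in all 3 libraries. Single nucleotides therefore carried little depth, and the comparisons above were made over exons, introns and genes.

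Of 30 other genes of these complexes and their regulators, 22 had enough crosslinks to be tested. Exons were called denser in 20 and introns in none (edgeR, over the same 6907 genes, of which 71.8% were called denser in exons), and Hdac8 and Ncaph2 had no call. The median log2 ratio of the 22 was 2.97, against 2.46 over all genes tested. Those with most crosslinks were Nipbl, which loads cohesin, with 228, 113 and 632 exonic crosslinks (69.2 ± 54.3 CPM per kb of exon), Wapl, which releases it, with 65, 45 and 164 (29.3 ± 19.5), Nsmce2, the SUMO ligase of the Smc5 and Smc6 complex, with 3, 1 and 9 (8.53 ± 7.54), and Pds5b, a cohesin regulator, with 16, 10 and 19 (7.31 ± 3.38). Nsmce2 had 39, 85 and 48 crosslinks in its introns. Nipbl had a mean exonic density between those of Smc4 and Smc1b, and like them it was lowest in replicate 2.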

How the data were processed

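Tra2β iCLIP was performed on testes of wild type adult mice, with 3 libraries in 1 group. The authors processed the reads with the iMAPS pipeline. The submitters' processing notes name Trim Galore 0.6.7, Bowtie 1.3.1, STAR 2.7.9a, UMI-tools 1.1.2 and the mouse build mm39, which is GRCm39. Their order, parameters and handling of multiply mapping reads are not given in the sources used here. Each file holds the deposited counts. These are whole numbers of unique cDNAs per crosslinked nucleotide and strand, not normalised and not pooled. UMI-tools, among the tools named, collapses reads that share a random barcode. Intervals cover counting error only.

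Counts were summed on the gene strand over exons and introns of the Ensembl canonical transcript of GENCODE vM39. Exons against introns and internal exons against the other internal exons of their transcript were tested with edgeR 4.0.16 (quasi-likelihood F-test, R 4.3.3), with library as a block and log length as offset, Benjamini-Hochberg adjustment over all genes or exons tested and calls at an adjusted p under 0.05. Genes needed at least 20 crosslinks, and exons an expected count of at least 2 in transcripts with at least 20 crosslinks over at least 3 internal exons. P-values measure the spread between these 3 libraries. Class and coiled-coil comparisons used an exact sign-flip permutation test over libraries. A residue was predicted as coiled coil in a window of 28 residues without proline where the share of hydrophobic residues at heptad positions a and d exceeded that elsewhere by at least 0.4.

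The alternatives were an exact binomial test per library, limma 3.58.1, other references, no minimum, each position counted once, other exon sets, other coiled-coil rules and leaving out a library or gene. The genes and lists were chosen with earlier results of these data known. The text names all 10 genes, each called exon, the 10 densest exons with at least 10 crosslinks and 1 in each library, the leading intron of each gene and the densest window of 41 nt in its densest coding exon. Exceptions are marked as chosen after their values were seen.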

Additional observations from a re-analysis of the deposited data

How the results depend on the processing

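All 9 genes tested kept denser exons in direction under each of 7 alternatives, and 7 of them stayed called throughout. The number of member exons called was 3 higher and 2 lower. It was 0 and 0 by the exact binomial test per library, 6 higher with all other exons as the reference, 1 lower by limma on the log2 ratio and 1 lower with no minimum for the expected count. With a library left out, the count ranged from 0 to 2 higher and from 0 to 5 lower (0 and 0 without replicate 1, 2 and 5 without replicate 2, 1 and 0 without replicate 3), and fewer samples then entered the fit. The difference between meiosis-specific and general genes changed sign without replicate 2, to -1.99 percentage points of exonic share and -0.11 on the log2 scale of density, and ranged up to 3.38 and 0.18 with another library left out. With each gene weighted equally it was 8.59 percentage points and -0.36, and without the gene of most crosslinks in each class 13.8 and 0.0032. The cause was not tested. The mean log2 ratio of coiled-coil over other coding exons stayed above 0, from 0.29 without replicate 2 to 1.05 without replicate 1, and from 0.53 without Smc4, chosen after seeing the data, to 0.89 under the other settings. Single libraries did not all do so. Without Smc4 they gave 0.13, 1.54 and -0.08 in replicates 1, 2 and 3, so that replicate 2 carried the mean. The exonic share of the members ranged from 63.2% to 77.8%.

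No paired analysis between groups was possible because the labels gave 1 group. The tests and the ratios given by library were made within a library. Densities summed over libraries, the ranks of exons, the place of genes by coding sequence over 3' UTR and Spearman's rho pooled the counts. Replicate 3 gave 1207 of the 1893 exonic crosslinks of the 10 genes, so it weighs most in these. Depth limits single positions and single exons, and it limits Smc1a, Rec8 and Rad21l, with 32, 29 and 3 crosslinks in all, more than the other genes.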
